A study of Homo sapiens with 6 samples.

Results

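Metallothioneins are small, cysteine-rich proteins that bind zinc, copper and cadmium. The genes described here are MT2A and the MT1 genes MT1A, MT1E, MT1F, MT1G, MT1H, MT1M and MT1X, with MTF1, the zinc-sensing transcription factor, and SLC30A1, the zinc exporter ZnT1 of the plasma membrane. They were listed by name, 10 in all. A gene was measured where the array's annotation ties a transcript cluster, the unit for which the array gives 1 value, to that symbol and no other. This held for 9 of the 10, among the 18417 genes measured in the series. MT1A was not analysed here. MT2A had 3 such clusters, of which the one with the highest 6-array mean was used.

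The cells were AGS, a gastric carcinoma cell line of human origin, seeded, grown for 48 h and then treated with 20 µM celecoxib for 24 h or left as labelled controls. Celecoxib inhibits the prostaglandin-producing enzyme cyclooxygenase-2. It was given from a stock in DMSO, and the sources used here do not say whether control wells also received DMSO. Each group had 3 HuGene-1_0-st arrays, labelled as biological replicates and made from 250 ng of total RNA each, although the protocol also mentions pooling of RNA, so the spread between arrays may be technical. A difference in RNA from such cultures does not tell more RNA per cell from more cells that carry it.

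When zinc or cadmium enters a cell, MTF1 binds short metal response elements in promoters and switches on metallothionein genes and SLC30A1. The proteins then buffer the metal, and ZnT1 removes zinc from the cytosol. Oxidative stress, through released zinc or the factor NRF2, and glucocorticoids are further known inducers, which makes this family a common readout of metal and redox stress. The MT1 genes and MT2A lie in 1 cluster on the long arm of chromosome 16 and are much alike in coding sequence. Short array probes can therefore catch transcripts of several family members, and the values of these genes are not independent measurements.

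The promoters of 4 of the genes are shown because they hold matches to the core of the element through which MTF1 acts. They run from 250 bases before to 50 bases after the gene start, 5′ to 3′ on the strand of the gene, from RefSeq on GRCh38.p14, and 5 of the 10 genes matched an entry. Capitals mark matches to the core of the metal response element, searched as TGCACNC and TGCGCNC on both strands. MT2A is at chr16:56608334-56608633 (+), MT1X at chr16:56682220-56682519 (+), MT1H at chr16:56669564-56669863 (+) and SLC30A1 at chr1:211579112-211579411 (-).
MT2A: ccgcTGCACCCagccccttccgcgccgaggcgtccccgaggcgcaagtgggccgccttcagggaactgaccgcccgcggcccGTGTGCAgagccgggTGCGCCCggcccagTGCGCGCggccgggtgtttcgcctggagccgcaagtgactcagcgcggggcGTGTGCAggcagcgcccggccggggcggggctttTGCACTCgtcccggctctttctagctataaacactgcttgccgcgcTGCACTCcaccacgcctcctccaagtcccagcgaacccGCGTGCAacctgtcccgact
MT1X: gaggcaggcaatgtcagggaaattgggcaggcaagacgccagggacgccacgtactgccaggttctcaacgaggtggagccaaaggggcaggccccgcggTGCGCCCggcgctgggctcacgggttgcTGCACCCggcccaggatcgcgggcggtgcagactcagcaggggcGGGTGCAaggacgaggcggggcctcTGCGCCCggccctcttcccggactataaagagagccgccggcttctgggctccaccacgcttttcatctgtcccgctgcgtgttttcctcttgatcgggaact
MT1H: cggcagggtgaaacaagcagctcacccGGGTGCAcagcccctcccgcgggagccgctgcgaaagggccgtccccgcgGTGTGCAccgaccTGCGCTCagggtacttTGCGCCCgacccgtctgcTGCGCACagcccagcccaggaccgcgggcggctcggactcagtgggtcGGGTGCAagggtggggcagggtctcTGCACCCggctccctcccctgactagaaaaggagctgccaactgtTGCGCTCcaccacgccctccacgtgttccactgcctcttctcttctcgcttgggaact
SLC30A1: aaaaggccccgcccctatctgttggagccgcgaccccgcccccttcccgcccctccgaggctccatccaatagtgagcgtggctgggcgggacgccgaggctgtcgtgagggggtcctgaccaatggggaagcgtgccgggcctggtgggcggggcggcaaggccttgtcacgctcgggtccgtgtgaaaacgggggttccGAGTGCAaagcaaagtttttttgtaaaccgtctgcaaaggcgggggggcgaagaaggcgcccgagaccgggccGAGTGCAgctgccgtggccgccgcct

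MT2A and MT1H held 8 matches each, MT1X held 4 and SLC30A1 held 2. The promoter of MTF1 itself, the fifth entry, held 0. Of 27305 promoters of the same length, 29.3% held at least 1 match, 8.59% at least 2 and 0.593% at least 4. A core of the antioxidant response element, searched as TGACNNNGC on both strands, was found once each in MT2A, MT1X and SLC30A1, against 13.6% of all promoters with at least 1. No match overlapped another in these windows. A match is a string of letters and not a measured binding site, and these arrays do not measure binding.

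**Figure D1:**
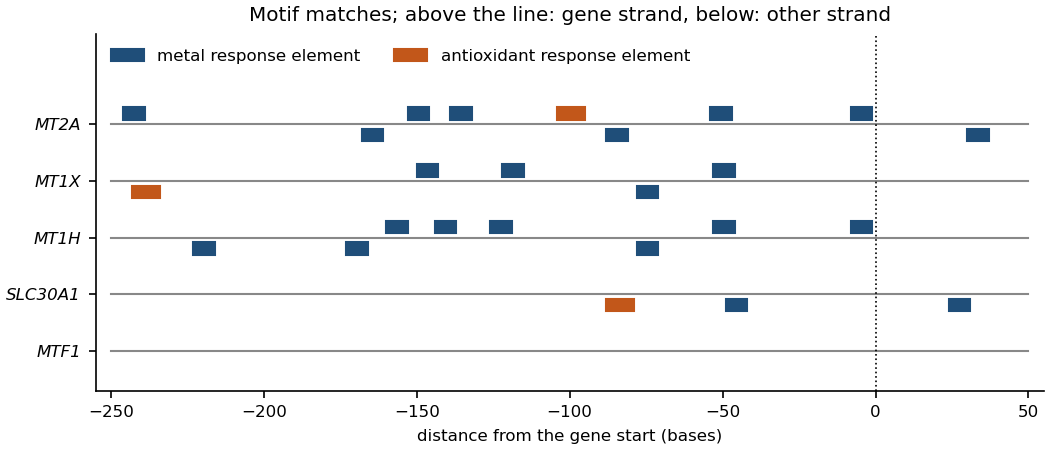
Positions of motif matches (boxes) in the promoters of 5 genes, with distance from the gene start in bases on the horizontal axis. MT2A and MT1H have 8 metal response matches each, MT1X 4, SLC30A1 2 and MTF1 0.

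The deposited values are on a log2 scale after RMA, a method that corrects background, equalises the arrays and combines the probes of a cluster. Array medians lay between 6.75 and 6.82. Celecoxib 1 held the highest or the lowest of the 6 values in 49.9% of all genes. It was highest in 27.4%, against 8.2% to 20.1% for each other array. It was lowest in 22.5%, against 10.0% to 20.2% for each other array. The median of 195 small nuclear and nucleolar RNA genes was 7.49 in celecoxib 1, against 7.21 and 7.17 in the other celecoxib arrays and 6.98 to 7.13 in the controls. All 5 epithelial markers were at or above the median signal of all clusters (6.79), as were 1 of 5 fibroblast, 1 of 4 leukocyte and 0 of 4 endothelial markers. Differences below are celecoxib minus control from limma over all 18417 genes, with standard errors (SE), and an adjusted p under 0.05 (Benjamini-Hochberg) counts as a call.

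The study compared celecoxib with control cells across all genes, and the question here is whether transcripts of the zinc buffering system differed between them. All 9 had a positive difference, from 0.03 for MTF1 to 0.17 for MT2A, but 0 of the 9 passed the limma test. Over all genes 26 of 18417 passed, or 0.141%, so 0 of 9 is near the background. The adjusted p of the 9 lay between 0.439 and 0.919, and 1 gene, MT2A, had an unadjusted p under 0.05, against 11.3% of all genes. The median difference of the 9 was 0.11, beside -0.0068 over all genes, of which 47.9% were positive. The median SE was 0.09 for both. With 3 arrays a group, no 95% interval of the 9 reached beyond 0.44 or below -0.24, that is 1.35-fold and 0.845-fold, both from genes with wide spread (MT1X and SLC30A1).

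**Figure D2:**
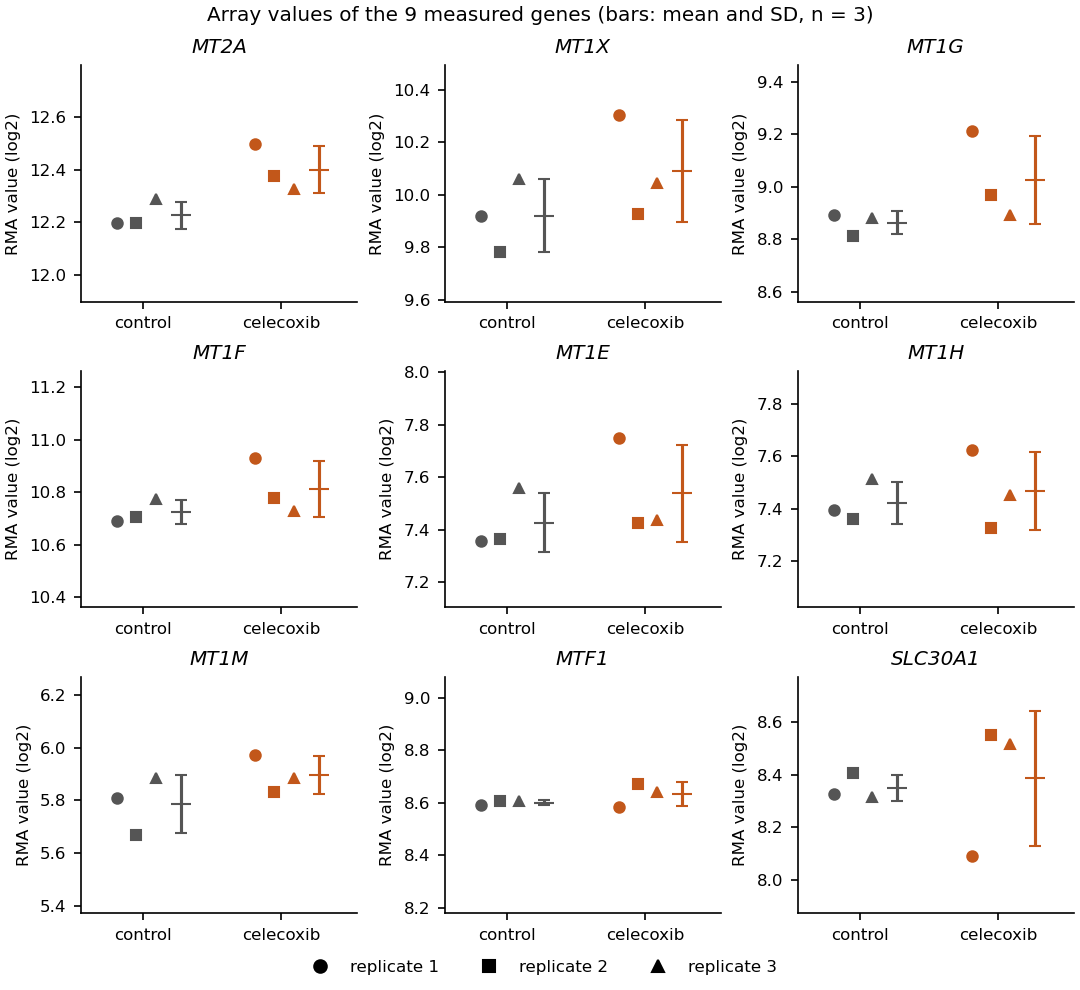
RMA values (log2) of the 9 measured genes in each of the 6 arrays, with mean and SD of each group (n = 3) beside the points. Every vertical axis spans the same range in log2 units, and MT2A is the gene whose groups do not overlap.

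MT2A, a metallothionein expressed in most human tissues, read 12.20, 12.20 and 12.29 in control arrays 1 to 3 and 12.50, 12.38 and 12.33 in celecoxib arrays 1 to 3. Every celecoxib array was above every control, which held for 11.1% of all genes in that direction. The means were 12.23 ± 0.05 and 12.40 ± 0.09 (SD, n = 3), and the difference was 0.17 ± 0.07 (SE, limma adjusted p = 0.439), or 1.13-fold with a 95% interval from 1.00 to 1.27. Without celecoxib 1 the difference was 0.12 ± 0.07. The other clusters annotated to MT2A read the same direction, with differences of 0.14 and 0.15. In each of the 3 the celecoxib arrays lay above the controls, but clusters of 1 gene share their target.

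MT1X, an MT1 gene with 4 metal response matches, read 9.92, 9.78 and 10.06 in the controls and 10.30, 9.92 and 10.04 with celecoxib. Celecoxib 1 was highest, and the other celecoxib arrays lay within the range of the controls. The difference was 0.17 ± 0.11 (SE, limma adjusted p = 0.581), and 0.06 without celecoxib 1. The SD of its controls was 0.14, against 0.05 for MT2A.

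MT1G read 8.89, 8.81 and 8.88 in the controls and 9.21, 8.97 and 8.89 with celecoxib. Celecoxib 1 and 2 were above every control, and celecoxib 3 was level with the highest control. The difference was 0.16 ± 0.09 (limma adjusted p = 0.530), and 0.07 without celecoxib 1.

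MT1F read 10.69, 10.70 and 10.77 in the controls and 10.93, 10.78 and 10.73 with celecoxib, a difference of 0.09 ± 0.08 (limma adjusted p = 0.674). MT1E read 7.36, 7.37 and 7.56 in the controls and 7.75, 7.43 and 7.44 with celecoxib, a difference of 0.11 ± 0.11 (limma adjusted p = 0.704). In both, celecoxib 1 was the highest array and celecoxib 3 lay within the controls' range. Without celecoxib 1 the differences were 0.03 for MT1F and 0.0052 for MT1E.

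MT1H, whose promoter holds 8 metal response matches, read 7.39, 7.36 and 7.51 in the controls and 7.62, 7.33 and 7.45 with celecoxib. Celecoxib 2 was the lowest of the 6 arrays, and the difference of 0.04 ± 0.09 (limma adjusted p = 0.872) became -0.03 without celecoxib 1. MT1M, the 1 of the 9 with a mean below the median signal, read 5.81, 5.67 and 5.89 in the controls and 5.97, 5.83 and 5.89 with celecoxib. Its difference was 0.11 ± 0.08 (limma adjusted p = 0.620), and 0.07 without celecoxib 1.

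**Figure D3:**
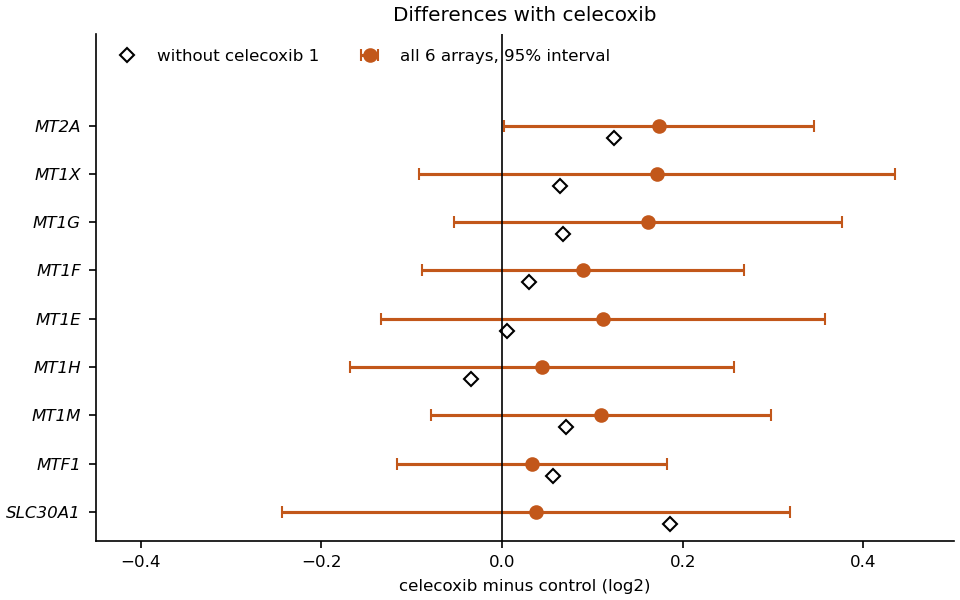
Celecoxib minus control (log2) for the 9 genes, with filled points and bars for the fit on all 6 arrays and its 95% interval, and open diamonds for the fit without celecoxib 1. Leaving out that array moves the 7 metallothioneins left and SLC30A1 right. In either fit 0 of the 9 genes passed the test, beside 26 of all 18417 genes with 6 arrays and 1 without celecoxib 1.

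The 7 metallothioneins had a common pattern over the arrays. Celecoxib 1 was the highest of the 6 arrays in 7 of 7, against 27.4% of all genes. Set against the mean of the controls, the mean of the 7 was 0.28 in celecoxib 1, 0.04 in celecoxib 2 and 0.06 in celecoxib 3. The controls themselves spread from -0.07 in control 2 to 0.08 in control 3, so celecoxib 2 and 3 lay inside the range of the controls. All 7 exceeded every control in celecoxib 1, as did 35.25% of all genes. In celecoxib 2, 3 of the 7 did so, against 26.1% of all genes. In celecoxib 3 it was 1 of the 7, MT2A, against 28.9%.

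The small nuclear and nucleolar RNA level moved with these values, at 0.42, 0.14 and 0.10 above its control mean in celecoxib 1 to 3, and was lowest in control 2. The level was higher in every celecoxib array than in every control, so a fit with it as a covariate cannot separate it from treatment. With that level as a covariate, 6 of the 7 metallothioneins had negative differences and their median was -0.03. MT2A stayed positive at 0.07, and 0 of 7 were called by limma with the covariate or without it.

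**Figure D4:**
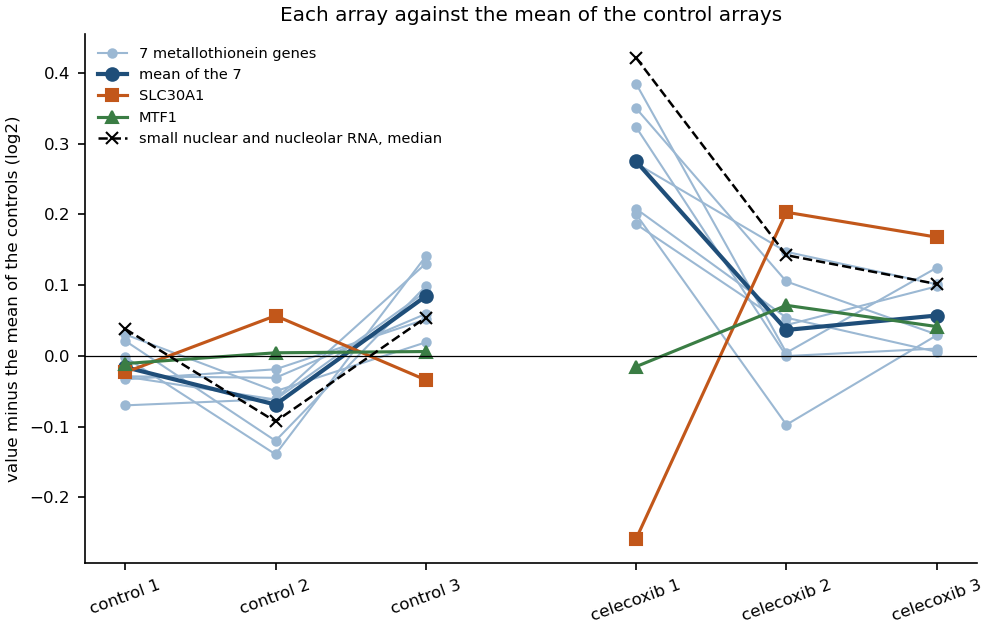
Value of each array minus the mean of the 3 controls (log2) for the 7 metallothioneins, their mean, SLC30A1, MTF1 and the median of 195 small nuclear and nucleolar RNA genes. Lines join the values of 1 gene and carry no order of time. Metallothioneins and small RNA are highest in celecoxib 1, where SLC30A1 is lowest.

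The regulators did not follow that pattern. MTF1 read 8.59, 8.61 and 8.61 in the controls and 8.59, 8.67 and 8.64 with celecoxib. Celecoxib 1 was the lowest of the 6 arrays by a narrow margin, and the difference was 0.03 ± 0.07 (limma adjusted p = 0.865) with a 95% interval from -0.12 to 0.18. The MTF1 protein is known to be activated by zinc binding and by entry into the nucleus, neither of which was measured.

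SLC30A1, a target of MTF1 like the metallothioneins, read 8.33, 8.41 and 8.32 in the controls and 8.09, 8.55 and 8.52 with celecoxib. The celecoxib arrays fell on both sides of the controls: celecoxib 1 was the lowest array, and celecoxib 2 and 3 were the highest. The SD was 0.26 with celecoxib and 0.05 in the controls, and the difference was 0.04 ± 0.12 (limma adjusted p = 0.919). Without celecoxib 1 it was 0.19 ± 0.07 (limma adjusted p = 0.479), the largest of the 9 in that fit, and without celecoxib 2 it was -0.05. With the small RNA level as a covariate it was 0.33 ± 0.09 (limma adjusted p = 0.374), its highest value over the alternatives.

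Other metallothionein genes and pseudogenes on the array were read in the same fit. Of 9 listed, 7 were measured, all 7 with positive differences and a median of 0.14, and 0 passed. Without celecoxib 1 the median was 0.04 with 6 of 7 positive, and with the small RNA covariate it was -0.08 with 3 of 7 positive. MT1JP, a transcribed pseudogene, differed by 0.30 ± 0.10 (limma adjusted p = 0.365). It read 6.47, 6.26 and 6.59 in the controls and 6.73, 6.61 and 6.86 with celecoxib. It was the 1 of the 7 without overlap, against 11.1% of all genes in that direction. MT4, known from stratified epithelium, differed by 0.15 ± 0.09, MT1DP, a transcribed pseudogene, by 0.15 ± 0.11 and MT1HL1 by 0.14 ± 0.12. MT3, the form known from brain, was at 0.0065 ± 0.0963. Another cluster carries the symbols of both MT1L and NUTF2 and was not assigned to either gene. Signal at pseudogenes and at genes of other tissues may include transcripts of their relatives, and the part of cross-hybridisation was not tested.

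Zinc transporters showed no common direction. Of the 9 other genes of the SLC30 zinc transporter family, 5 were positive and 4 negative, with a median of 0.03, and 0 passed. The median was 0.10 without celecoxib 1 and 0.06 with the small RNA covariate, with 5 of 9 positive in both fits. SLC30A6 and SLC30A4, transporters of the Golgi and of endosomal vesicles, differed by 0.19 ± 0.07 (limma adjusted p = 0.364) and 0.18 ± 0.08 (limma adjusted p = 0.429). In both, and in SLC30A9 (0.15 ± 0.07), every celecoxib array was above every control. That makes 3 of the 9, against 11.1% of all genes in that direction. SLC30A3, the carrier of synaptic vesicles, differed by -0.15 ± 0.09.

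Of the 14 SLC39 genes, which bring zinc into the cytosol, 8 were positive and 6 negative, with a median of 0.02, and 0 passed by limma or had an unadjusted p under 0.05. Their median was 0.03 without celecoxib 1 and 0.01 with the covariate. SLC39A6 differed by 0.17 ± 0.09 and read 8.21 in celecoxib 1, with the other celecoxib arrays at 7.94 and controls of 7.92, 7.82 and 7.85. SLC39A11 differed by 0.09 ± 0.07, SLC39A8, an importer of zinc and manganese, by -0.08 ± 0.08 and SLC39A4, the intestinal zinc importer, by 0.07 ± 0.07.

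Copper genes were also read, since metallothioneins buffer that metal too. Of 14 measured, 9 were positive and 5 negative, with a median of 0.05, and 0 passed. The median was 0.03 without celecoxib 1, and -0.03 with 6 of 14 positive under the small RNA covariate. ATP7A, a copper-exporting ATPase, read 9.03, 9.04 and 9.09 in the controls and 9.34, 9.37 and 9.34 with celecoxib. The groups were far apart relative to their spread, at 0.30 ± 0.06 (limma adjusted p = 0.185), and the difference was 0.30 without celecoxib 1 as well. COX11, a copper chaperone of the respiratory chain, differed by 0.22 ± 0.08, STEAP2, a metal reductase, by 0.24 ± 0.11 and SCO2, another mitochondrial copper chaperone, by 0.23 ± 0.11. The copper importer SLC31A1 was at -0.0007 ± 0.0731.

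Among genes of the response to metal and oxidative stress, 8 of 10 measured were positive, with a median of 0.20. The median was 0.13 without celecoxib 1 and 0.10 with the small RNA covariate, with 8 of 10 positive in both fits. In 6 of the 10 the celecoxib arrays all exceeded the controls, against 11.1% of all genes. The list was chosen with earlier results of these data known, so these shares do not test it. SLC7A11, the cystine transporter, was the 1 that passed and rose by 0.60 ± 0.06 (limma adjusted p = 0.0296, and 0.0724 without celecoxib 1). Its difference was 0.59 both without that array and with the small RNA covariate, where the adjusted p was 0.207. With the replicate number as a block limma called 0 of all genes, with 2448 at an unadjusted p under 0.05. In the fits without control 1, control 2, celecoxib 2 or celecoxib 3, limma called 0 of all genes, with 1365, 1293, 2353 and 2102 at an unadjusted p under 0.05. NQO1, a quinone reductase, differed by 0.32 ± 0.07 (limma adjusted p = 0.197) and GCLC, the catalytic subunit of glutathione synthesis, by 0.31 ± 0.10 (limma adjusted p = 0.352). HMOX1, the heme oxygenase that cadmium and heme induce, differed by 0.29 ± 0.10 (limma adjusted p = 0.363), by 0.18 without celecoxib 1 and by 0.08 with the small RNA covariate. The heat shock cochaperone DNAJB1 went the other way, at -0.14 ± 0.08.

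Factors known to act at metallothionein promoters had 2 positive and 5 negative differences among 7 measured, with a median of -0.07, and 0 passed. USF2 differed by -0.39 ± 0.22, SP1 by -0.20 ± 0.13 and NFE2L2, which encodes NRF2, by -0.11 ± 0.14. In celecoxib 1 these 3 read 8.91, 8.87 and 9.48, below all other arrays. Without that array the median of the list was 0.01 with 4 of 7 positive, and with the small RNA covariate it was 0.17 with 6 of 7 positive. NR3C1, the glucocorticoid receptor, differed by 0.13 ± 0.08. Of 6 genes of the glucocorticoid response 2 were positive and 4 negative, with a median of -0.07, and 0 passed. Their median was -0.04 without celecoxib 1, and -0.05 with 0 of 6 positive under the covariate. The phosphatase gene DUSP1 differed by -0.26 ± 0.07 (limma adjusted p = 0.301), the kinase gene SGK1 by 0.15 ± 0.11, ZBTB16 by -0.10 ± 0.07 and the clock gene PER1 by -0.08 ± 0.07. In 3 of the 6, DUSP1 and PER1 among them, every celecoxib array was below every control. The share of all genes in that direction was not counted.

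**Figure D5:**
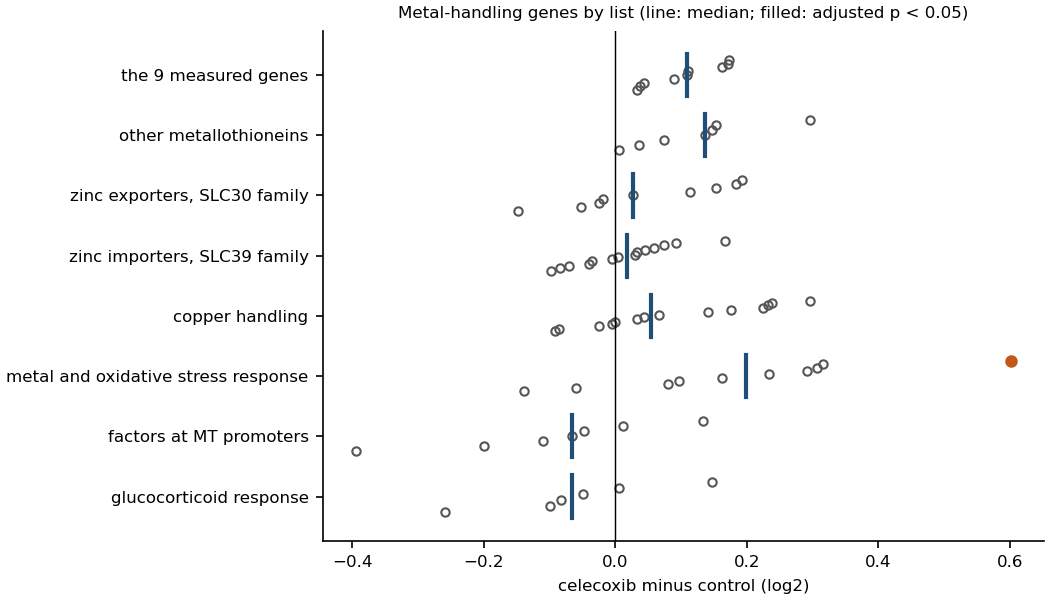
Celecoxib minus control (log2) of every measured gene in 8 groups of metal-handling genes, 1 point a gene, with a vertical line at the median of each group. The 1 filled point, SLC7A11, is the gene that passed the test, and the 9 genes at the top lie between 0.03 and 0.17.

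The genes outside the list whose profile over the 6 arrays was most like that of MT2A, by Pearson's r among 10866 genes at or above the median signal, were CHMP4C (0.998), GLMP (0.997), GPATCH2 (0.997), FBXO3 (0.996) and STAMBP (0.996). CHMP4C, a subunit of the ESCRT membrane-scission machinery, read 7.67, 7.68 and 7.77 in the controls and 8.04, 7.89 and 7.82 with celecoxib. With 6 arrays such values are common: 929 of the 10866 genes reached 0.9. Within the family, r with MT2A was 0.92 for MT1F, 0.91 for MT1G, 0.84 for MT1X, 0.83 for MT1E, 0.80 for MT1M and 0.63 for MT1H. It was 0.14 for MTF1 and -0.38 for SLC30A1. These are descriptions of shared arrays and possibly shared probe signal.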

How the data were processed

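The authors deposited log2 values for 33297 transcript clusters on 6 HuGene-1_0-st arrays. Per the submitters' processing notes they were made with RMA in Affymetrix Expression Console 1.1. No scanner files were used, signal over background was not set, and the number of arrays limits the precision. Scan dates were not known, and no batch was tested. Of the clusters, 19460 had 1 symbol in the platform annotation, and the cluster with the highest mean stood for a gene (18417 genes).

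Groups came from the labels. The 3 celecoxib arrays were compared with the 3 controls by a linear model (lmFit, then eBayes, in limma 3.58.1 under R 4.3.3), two-sided, with Benjamini-Hochberg adjustment over all 18417 genes and a threshold of 0.05. The procedure was tested on simulated data. The genes and lists were chosen with earlier results of these data known. All measured genes of the 10 are named, with up to 4 genes of each further list by smallest p, and the 5 nearest to MT2A. SLC31A1, MT3 and DNAJB1 were named after their values were seen. FKBP5, ZNF658, HSPA1A, HSPA1B, COX17 and MT1CP were not analysed here. The labels do not pair the arrays, and the main fit did not treat them as paired. Deviations of arrays with equal replicate numbers correlated in 1 of 3 pairs (r = -0.02, 0.49 and 0.01), which does not settle whether they are paired. The count over all genes depends on this choice, at 26 calls by limma without a replicate block and 0 with it. Alternatives covered cluster choice, filters, normalization, the variance prior, array weights, a replicate block, a small RNA covariate and leaving out each array. Motifs were searched with Python 3.11.15 and figures drawn with matplotlib 3.10.9.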

Additional observations from a re-analysis of the deposited data

How the results depend on the processing

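The count of the 9 genes past the limma threshold was 0 in all 19 alternatives (8 genes tested above the median signal), with 0 or 1 of them at an unadjusted p under 0.05. Limma called 0 of all genes with every cluster in 1 test and with the replicate block. It also called 0 without control 1, control 2, celecoxib 2 or celecoxib 3. In those settings the count for the 9 could only be 0. The smallest adjusted p of the 9 was 0.204, for MT2A with array weights, whose adjusted p ran up to 0.800 over the alternatives. MT2A and MTF1 were positive in all 19. Under the 3 other normalizations all 9 genes stayed positive, with MT2A between 0.11 and 0.18.

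With the small RNA level as a covariate, MT1E was at -0.11, MT1F at -0.031, MT1G at -0.033, MT1H at -0.12, MT1M at -0.0088 and MT1X at -0.076. MT2A was at 0.07, MTF1 at 0.08 and SLC30A1 at 0.33, against 0.04 for SLC30A1 without the covariate. The small RNA level was higher in every celecoxib array than in every control, so it overlaps with treatment. The cause was not tested. Leaving out 1 array at a time gave -0.034 to 0.11 for MT1H, lowest without celecoxib 1, and -0.045 to 0.19 for SLC30A1, which was negative without celecoxib 2 (-0.045) or celecoxib 3 (-0.028).

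Over all genes, 26 were called. The count was 76 above the median signal, 59 without the dimmest 20%, 44 with quantile normalization, 42 with cyclic loess, 69 with an intensity trend, 69 with a robust prior added and 177 with array weights. It was 1 with the covariate and 0 to 5 without 1 array. Limma called 0 with every cluster in 1 test (2551 at an unadjusted p under 0.05) and 0 with the replicate number as a block (2448 at an unadjusted p under 0.05). It called 0 without control 1, control 2, celecoxib 2 or celecoxib 3 (1365, 1293, 2353 and 2102 at an unadjusted p under 0.05), 1 without celecoxib 1 and 5 without control 3. The labels do not say that arrays with equal numbers belong together, and the deviations of the replicate 2 arrays correlated (r = 0.49). With the block 0 of the 9 genes were called, as without it, but so were 0 of all genes. Without scanner signals, no bound could be set for the dim gene MT1M.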

Other observations

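Genes on the array were also grouped by the number of metal response matches in their promoters, over the 14239 genes with a promoter entry. The 100 genes with at least 4 matches, MT2A, MT1X and MT1H among them, had a median difference of -0.02, with 41 positive and 1 called by limma. The 9257 genes with 0 matches had a median of -0.0029, with 48.9% positive and 12 called. An unadjusted p under 0.05 was seen in 12.0% of the former and 11.5% of the latter.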
